A study of Homo sapiens with 6 samples.

Results

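The lower dose of decitabine was compared with its vehicle in 786-0 cells, an established line of clear cell renal cell carcinoma. All libraries are labelled SETD2 knockout. The members are the 2 libraries treated with 100 nM decitabine and the 2 treated with DMSO, chosen by their titles, 4 of the 6 libraries given here. The other 2 received 300 nM and enter only the estimate of the spread and the filter that sets which genes are tested. Drug or DMSO was added daily for 3 days, the medium was renewed on day 4 and the cells were taken on day 5. The controls carry the SETD2 knockout too, and no library with intact SETD2 was analysed here. The sources used here give neither whether the knockout line is 1 clone nor whether the 2 libraries of a group stem from independent cultures. The p-values therefore measure spread between libraries only, and that spread may be technical.

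Decitabine is a deoxycytidine analogue. Built into DNA during replication, it traps DNA methyltransferases, and the methylation of cytosines in CG pairs is then diluted as cells divide. Promoters that hold many CG pairs are often silent when methylated, as in many germ-cell genes in somatic cells. Transcripts of retroelements freed in this way can be sensed as foreign RNA and start an interferon response. SETD2 places trimethylation on lysine 36 of histone H3 along transcribed genes, a mark that de novo methyltransferases read.

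Levels are CPM, assigned reads scaled by TMM to a common library size, or RPKM, the same per kilobase of exon, which allows levels of different genes to be set side by side. The tubule factor PAX8 marked the line, at 34.3 and 34.4 RPKM with DMSO and at 19.5 and 23.1 RPKM at 100 nM. VIM stood at 344.7 and 360.4 RPKM with DMSO and at 357.4 and 346.7 RPKM at 100 nM. CA9, a carbonic anhydrase that marks clear cell carcinoma with an active hypoxia response, had 0 reads in both DMSO libraries, and 8 and 14 reads at 100 nM. NDUFA4L2, a marker of the same list, had 15 and 6 reads with DMSO and 85 and 58 at 100 nM. The rest of the list ran from 3.79 RPKM (PAX2) to 33.4 RPKM (KRT18) in DMSO replicate 1, with CDH6 and NNMT between. The listed markers of the labelled cell type were thus expressed except for CA9 and NDUFA4L2, which were absent or almost so with DMSO. The 4 libraries held 89159112 to 95271726 reads assigned to genes, so that 3 reads correspond to 0.0315 to 0.0336 CPM. RNA was poly-A enriched, and in a bulk sample fewer cells of a type and less RNA per cell cannot be told apart.

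Exposure to 100 nM changed a large part of the transcriptome. Of 23160 genes tested with edgeR's quasi-likelihood test, 5564 (24%) were higher and 4331 (18.7%) were lower at an adjusted p under 0.05. Large changes were mostly rises: 1841 genes (7.95%) rose at least 8-fold and 87 (0.376%) fell as far, while 3689 (15.9%) rose and 1310 (5.66%) fell at least 2-fold. Genes that rose at least 8-fold took 0.0733% and 0.0692% of reads with DMSO and 1.37% and 1.39% at 100 nM. The median log2 fold change of all tested genes was 0.03. Among 15386 protein-coding genes, 4360 (28.3%) were higher and 3596 (23.4%) lower. Both 100 nM libraries were above both DMSO libraries in 8951 tested genes (38.6%) and below both in 8394 (36.2%). Groups that do not overlap were thus common. These shares are the background for the lists and genes below. A list member silent with DMSO was tested only where treated libraries, those at 300 nM included, gave it enough reads, so counts in lists with many such members had to lean upward and are given as descriptions only.

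**Figure D1:**
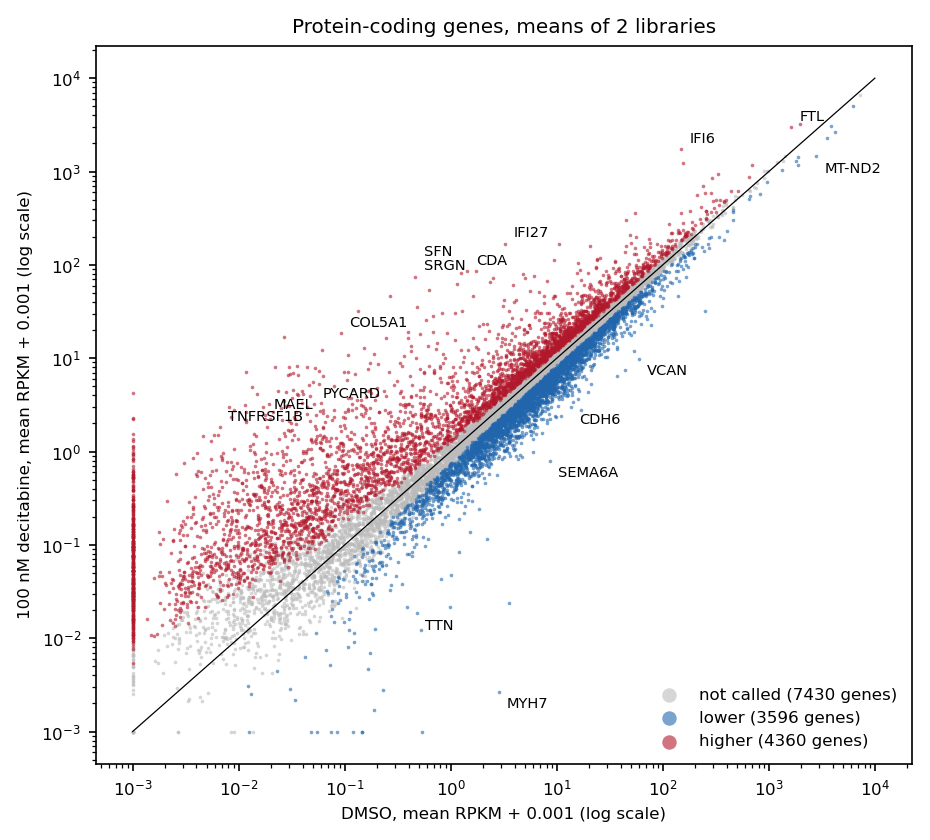
Mean level of each tested protein-coding gene with DMSO (x axis) and at 100 nM (y axis), in RPKM plus 0.001 on log scales, over 2 libraries each. Red points are the 4360 genes called higher and blue points the 3596 called lower; the red column at the left edge holds genes with no reads in either DMSO library, and most points far from the diagonal lie above it.

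The falls were concentrated in long and AT-rich transcripts. For protein-coding genes averaging 1 CPM or more, 14.4%, 27.1% and 44.3% were lower among the shortest, intermediate and longest of 3 equal classes of exon length. By GC content, 47.9% were lower in the AT-richest of 3 equal classes, 20.6% in the intermediate and 17.3% in the GC-richest. When each library's trend with exon length and GC content was removed, 5302 genes were higher and 7085 lower, so that rises made up 42.8% of calls. The median of all genes moved to -0.14, 4430 of the 5564 higher calls and 3653 of the 4331 lower calls were kept, and 56 and 27 changed sign. Whether these trends belong to the cells or to the libraries was not tested. Adjusted counts are given beside the lists below whose counts moved by over 1.5 times, or to or from 0.

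Many genes without reads in the controls became detectable. Of 4312 protein-coding genes with 0 reads in DMSO replicate 1, 27 had at least 10 reads in DMSO replicate 2, against 494 and 491 in the 100 nM libraries. None of them had 100 reads in DMSO replicate 2, while 64 and 56 did at 100 nM. Among 1776 genes with 1 to 9 reads, 288 reached 10 reads in the other DMSO library and 857 and 834 did at 100 nM. Of genes with 10 to 99 reads in DMSO replicate 1, 37.8% and 38.3% were more than 2-fold above DMSO replicate 2 in the treated libraries.

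**Figure D2:**
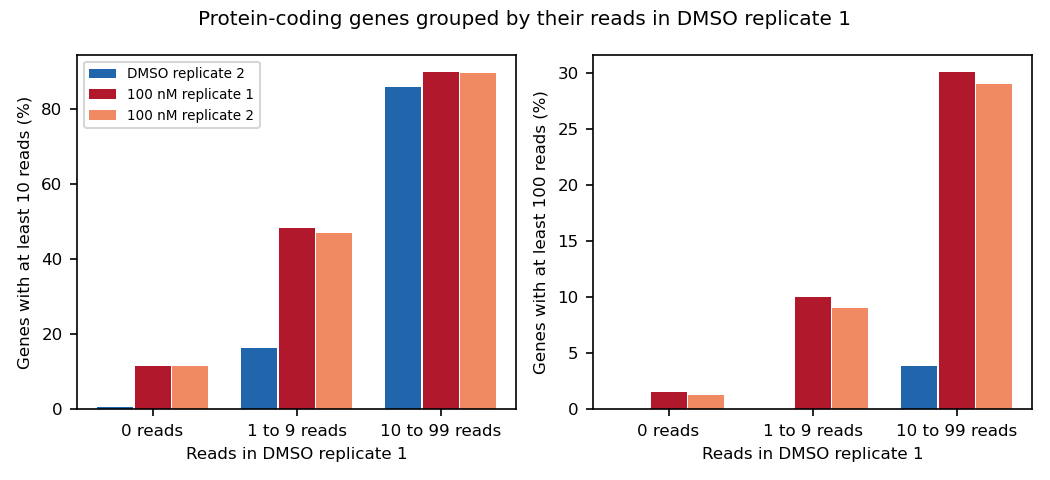
Percentage of protein-coding genes with at least 10 reads (left) and at least 100 reads (right) in DMSO replicate 2 and both 100 nM libraries, for genes grouped by their reads in DMSO replicate 1. Of the 4312 genes with 0 reads there, 27 reached 10 reads in the second DMSO library and 494 and 491 at 100 nM.

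Among tested genes, higher calls were more frequent in long intergenic RNAs than in other non-coding classes. Of 1695 lincRNAs tested, 487 were higher, 150 were lower and 15.5% rose at least 8-fold, against 8.14% of protein-coding genes. As in the lists, genes silent with DMSO were tested only where treated libraries gave them enough reads. Shares of large rises in classes, chromosomes or promoter groups with many such genes thus lean upward and are descriptions only. Antisense RNAs numbered 289 higher and 172 lower of 1899, but without strand their reads cannot be told apart from those of the sense gene. On chromosome X, 110 of 579 protein-coding genes (19%) rose at least 8-fold, and chromosome 19 came next among chromosomes with over 100 tested genes, at 10.6%. Chromosome 13 had the most falls among these, 39.9% of its 243 genes.

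Large rises fell on promoters with few CG pairs more often than on promoters with many. A RefSeq promoter (GRCh38.p14, 250 bases before to 50 after the start) was matched for 12427 of the 14854 tested protein-coding genes looked up. At least 8-fold rises made up 15.9%, 18.2% and 18.7% of genes with 0 to 2, 3 to 5 and 6 to 9 CG pairs. The share was 15.2% with 10 to 14 pairs, 5.79% with 15 to 19, 4.51% with 20 to 29 and 3.39% with 30 or more. The median DMSO level moved with the CG count, from 0.129 RPKM in the first class to 5.71 RPKM in the last, and its part in this order was not tested. DNA methylation itself was not measured in these libraries.

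Genes that rose strongly included some with many and some with few CG pairs. The 250 bases before the RefSeq start of 5 of them are shown, 5′ to 3′ in the direction of the gene, with CG pairs in capitals. This start can differ from that of the counted gene model. The models of DAZL and PYCARD begin at chr3:16670306 and chr16:31203450, so their stretches lie inside the model. Those of CDA and SFN begin at chr1:20588948 and chr1:26863138, within the stretch. MAEL (chr1:166975332-166975581, plus strand) has 51 CG pairs in this stretch, DAZL (chr3:16605424-16605673, minus strand) has 28 and PYCARD (chr16:31202761-31203010, minus strand) has 16. CDA (chr1:20588847-20589096, plus strand) has 5 and SFN (chr1:26862899-26863148, plus strand) has 3. Over the longer stretch used for the classes above, MAEL, DAZL and PYCARD have 60, 33 and 23, and CDA and SFN have 8 and 7.
MAEL: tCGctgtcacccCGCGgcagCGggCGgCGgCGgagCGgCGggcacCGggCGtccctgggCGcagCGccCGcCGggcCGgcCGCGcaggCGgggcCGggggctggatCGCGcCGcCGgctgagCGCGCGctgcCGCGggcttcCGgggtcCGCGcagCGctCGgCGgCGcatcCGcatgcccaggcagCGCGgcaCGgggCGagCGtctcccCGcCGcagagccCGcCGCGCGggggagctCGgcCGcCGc
DAZL: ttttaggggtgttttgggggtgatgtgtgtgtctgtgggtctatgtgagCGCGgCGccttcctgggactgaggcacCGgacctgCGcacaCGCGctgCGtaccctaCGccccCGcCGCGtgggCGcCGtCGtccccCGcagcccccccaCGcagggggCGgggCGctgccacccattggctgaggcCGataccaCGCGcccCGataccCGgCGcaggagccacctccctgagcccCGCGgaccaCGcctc
PYCARD: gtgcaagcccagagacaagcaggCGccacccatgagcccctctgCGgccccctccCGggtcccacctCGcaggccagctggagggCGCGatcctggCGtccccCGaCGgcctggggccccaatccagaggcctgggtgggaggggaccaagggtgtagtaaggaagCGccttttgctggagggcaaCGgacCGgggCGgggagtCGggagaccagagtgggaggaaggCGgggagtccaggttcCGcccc
CDA: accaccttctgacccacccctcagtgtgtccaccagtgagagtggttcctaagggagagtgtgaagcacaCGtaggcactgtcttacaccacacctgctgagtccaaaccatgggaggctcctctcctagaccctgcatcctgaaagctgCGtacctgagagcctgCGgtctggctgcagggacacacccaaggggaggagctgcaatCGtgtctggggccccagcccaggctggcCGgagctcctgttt
SFN: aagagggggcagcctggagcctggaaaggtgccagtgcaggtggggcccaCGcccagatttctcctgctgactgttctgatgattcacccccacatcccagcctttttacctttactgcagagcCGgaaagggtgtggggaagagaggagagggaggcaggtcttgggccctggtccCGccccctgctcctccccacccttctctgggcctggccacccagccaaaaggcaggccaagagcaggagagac

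CDA encodes cytidine deaminase, the enzyme that inactivates decitabine. It stood at 1.3 and 1.47 CPM with DMSO and at 86.8 and 77.7 CPM at 100 nM (log2 fold change 5.89 ± 0.15 SE, adjusted p = 2.3e-14). SFN, the 14-3-3 sigma protein induced by p53, stood at 1.61 and 1.7 CPM with DMSO and at 116.7 and 101.4 CPM at 100 nM (6.04 ± 0.16, adjusted p = 2.3e-14). For both genes the groups lay far apart. Other rises from at least 100 reads in each DMSO library were those of UNC13D, a factor of granule release, from 2.01 and 1.77 CPM to 132.9 and 120.7 CPM, and of FERMT3, an integrin activator of blood cells, from 1.34 and 1.09 CPM to 59.3 and 56.7 CPM. These had log2 fold changes of 6.07 ± 0.15 and 5.58 ± 0.17.

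Several germ-cell genes rose from near 0. Of 48 listed germline genes, 36 passed the filter on low counts, 25 were higher and 1 was lower. With only the 4 libraries compared in the fit 20 were higher, as was so without 100 nM replicate 2, and 19 were higher without DMSO replicate 1. MAEL, of the piRNA pathway that silences transposons, stood at 0.0416 and 0.0638 CPM with DMSO and at 7.59 and 7.72 CPM at 100 nM (7.15 ± 0.25, adjusted p = 4.3e-13). GTSF1, of the same pathway, stood at 0.0208 and 0.0319 CPM with DMSO and at 8.06 and 7.73 CPM at 100 nM (8.16 ± 0.29, adjusted p = 5.3e-13). In each of these genes the DMSO libraries held few reads and both 100 nM libraries were clearly above them. DAZL, an RNA-binding protein of germ cells, stood at 0.0208 and 0.0213 CPM with DMSO and at 3.12 and 3.43 CPM at 100 nM (7.19 ± 0.32). Over the alternatives the log2 fold change of DAZL ranged from 4.38 to 7.40. TEX15, a transposon-silencing factor of male germ cells, went the other way, from 8.68 and 9.21 CPM to 3.08 and 4.7 CPM.

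Of 34 MAGE genes, 28 passed the filter, of which 24 were higher and 0 lower, or 3 lower after the length and GC adjustment. MAGEB2 stood at 0.0624 and 0.0213 CPM with DMSO and at 28.1 and 26.6 CPM at 100 nM (9.30 ± 0.24, adjusted p = 2.3e-14). MAGE genes include near-identical copies among which reads may be split, so values of single members are uncertain. Factors of pluripotency and the early embryo were less uniform, with 9 higher and 2 lower of 19 tested of 29 listed, or 1 lower with any 1 of the 4 libraries left out. KLF4 rose from 23.1 and 22.8 CPM to 104.7 and 119.3 CPM, and POU5F1, the OCT4 gene, fell from 29.9 and 28.7 CPM to 20.7 and 19.9 CPM. POU5F1 has near-identical pseudogenes with which it may share reads.

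Antiviral effectors rose as a group. All 45 listed interferon-stimulated effectors were higher, with a median log2 fold change of 2.17 and 12 of them past 8-fold. With each library left out in turn and under the other alternatives, 43 to 45 were called. IFI6, a mitochondrial protein that blocks viral replication and apoptosis, had the largest gain of any protein-coding gene per length, from 152.2 and 144.1 RPKM to 1726 and 1723 RPKM (3.54 ± 0.10, adjusted p = 7.9e-14). ISG15, a ubiquitin-like modifier, went from 154.6 and 152.4 RPKM to 1263 and 1174 RPKM (2.99 ± 0.12). The 4 libraries formed separate pairs for both genes, which was common among all tested genes. IFI27, an interferon-induced mitochondrial protein, stood at 14.7 and 12.4 CPM with DMSO and at 717.4 and 678.8 CPM at 100 nM (5.69 ± 0.13, adjusted p = 8.2e-15). OAS2, a sensor of double-stranded RNA, stood at 15.9 and 15.4 CPM with DMSO and at 438.2 and 468 CPM at 100 nM (4.85 ± 0.11). MX2, a GTPase that restricts viruses, stood at 7.32 and 6.14 CPM with DMSO and at 233 and 244.5 CPM at 100 nM (5.15 ± 0.13).

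Receptors and signalling proteins of the interferon pathway moved less than the effectors. Of 23 tested, 12 were higher and 2 lower, with a median log2 fold change of 0.57. IRF7, the transcription factor that amplifies interferon production, stood at 11.2 and 10.4 CPM with DMSO and at 108.6 and 109.5 CPM at 100 nM (3.33 ± 0.13, adjusted p = 1.4e-12). USP18, which removes ISG15 from proteins and dampens the receptor, stood at 15.8 and 13.2 CPM with DMSO and at 109.3 and 109.9 CPM at 100 nM (2.92 ± 0.13). The lower members numbered 1 without either DMSO replicate and 0 without 100 nM replicate 1. JAK2, a receptor-bound kinase and 1 of them, fell by 0.65 on the log2 scale. In the proteasome list, 14 of 39 were higher and 4 lower. The 3 smallest adjusted p-values among the rises belonged to the interferon-inducible PSMB9, PSMB8 and PSME2, at log2 fold changes of 2.61 ± 0.12, 1.27 ± 0.11 and 1.02 ± 0.10. The proteasome counts were 12 higher and 13 lower after the length and GC adjustment. They were 5, 6 and 6 higher without DMSO replicate 1, DMSO replicate 2 and 100 nM replicate 1, and 9 higher with median-of-ratios size factors. HLA-B, which presents peptides to T cells and has close relatives, rose from 247.6 and 227.3 RPKM to 702 and 713.6 RPKM.

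**Figure D3:**
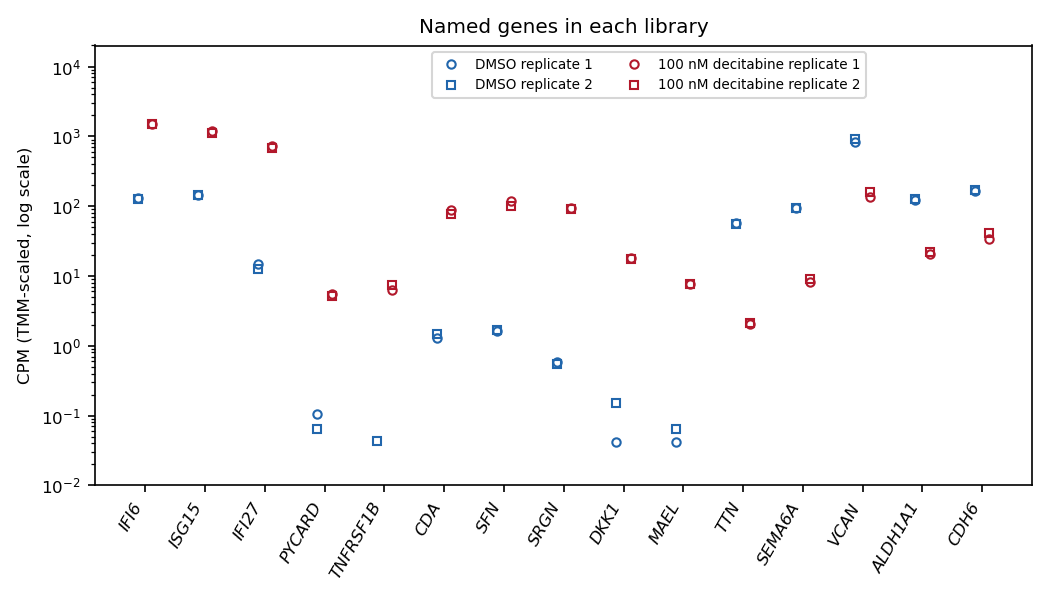
Level of 15 named genes in each library, in CPM on a log axis; circles are replicate 1 and squares replicate 2, blue for DMSO and red for 100 nM decitabine. No red symbol lies within the blue range of its gene, but the genes were picked among called genes, so this separation is no support. Among all tested genes both 100 nM libraries were above both DMSO libraries in 38.6% and below both in 36.2%. TNFRSF1B has 0 reads in DMSO replicate 1, which a log axis cannot show.

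Genes of the inflammasome, which processes interleukins and can end in lytic death, were mostly higher, 16 of 21, with 2 lower, or 1 lower without 100 nM replicate 2. PYCARD, the ASC adaptor that links sensors to caspases, stood at 0.104 and 0.0638 CPM with DMSO and at 5.51 and 5.12 CPM at 100 nM (5.96 ± 0.31, adjusted p = 7.3e-11). Its exons overlap those of another gene over 59.7% of their length, and the counts are without strand. IL18, a cytokine released by the inflammasome, stood at 1.06 and 1.38 CPM with DMSO and at 10.3 and 11.1 CPM at 100 nM (3.13 ± 0.18). CARD8, a sensor, fell by 0.70, a call lost after the length and GC adjustment.

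Chemokines, the secreted proteins that attract leukocytes, numbered 17 higher and 0 lower of 19 tested of 23 listed. CXCL8 stood at 2.45 and 2.76 CPM with DMSO and at 105 and 180.5 CPM at 100 nM (5.78 ± 0.24, adjusted p = 3.9e-12). CXCL1 stood at 2.26 and 1.94 CPM with DMSO and at 51 and 69 CPM at 100 nM (4.84 ± 0.17), and CCL5 at 11.9 and 12.5 CPM and at 102.7 and 98.8 CPM (3.05 ± 0.12). CXCL8 and CXCL1, which attract neutrophils, differed more between the 100 nM libraries than CCL5 did. All of these values were above the DMSO range, as were both 100 nM libraries in 38.6% of all tested genes.

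Of 31 ligands and receptors of the TNF superfamily, 20 were higher and 3 lower, or 9 lower after the length and GC adjustment. TNFRSF1B, the second TNF receptor, had 0 and 4 reads with DMSO and 615 and 684 reads at 100 nM (adjusted p = 1.2e-11). Its fitted log2 fold change was 8.25 ± 0.37 and ranged from 5.58 to 12.31 over the alternatives. TNFRSF14, a receptor of immune costimulation, and TNFRSF9, a receptor of activated T cells, had log2 fold changes of 4.02 ± 0.21 and 2.57 ± 0.13. TNFRSF19 fell by 0.95. Complement and coagulation genes numbered 22 (64.7%) higher and 5 (14.7%) lower of 34, beside 28.3% and 23.4% of all protein-coding genes. C3, the central complement protein, stood at 45.8 and 37.9 CPM with DMSO and at 568.1 and 628.6 CPM at 100 nM (3.84 ± 0.12, adjusted p = 1.4e-13). PLAT, the tissue plasminogen activator, and C1S, a complement protease, had log2 fold changes of 5.02 ± 0.20 and 4.18 ± 0.15, and TFPI, which inhibits coagulation, fell by 1.11.

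Markers of other cell types moved with these groups. Of 19 tested immune cell markers, 14 were higher and 1 lower, and the 25 listed sum to 100.8 and 104.1 CPM with DMSO and to 233.8 and 243.7 CPM at 100 nM. Most of the DMSO sum was NCAM1, the lower member, at 86 and 88.4 CPM with DMSO and at 52 and 62.3 CPM at 100 nM. The defining markers CD2, CD3G, MS4A1 and FCGR3A had 0 reads in all 4 libraries. LAPTM5 stood at 2.06 and 2.38 CPM with DMSO and at 92.1 and 92.5 CPM at 100 nM, and HCLS1 at 0.187 and 0.0851 CPM and at 22.9 and 20.9 CPM. Of 16 endothelial and fibroblast markers tested, 12 were higher and 0 lower, or 1 lower after the length and GC adjustment, and the 20 listed sum to 25.3 and 26.3 CPM with DMSO and to 1046 and 1015 CPM at 100 nM. Most of that sum was COL1A1, at 861 and 829.9 CPM at 100 nM. CDH5, which defines endothelium, had 10 and 10 reads with DMSO and 4 and 12 at 100 nM, and VWF had 69 and 94 reads and then 61 and 42. The part of other cells in these results was not tested.

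Among matrix genes, more collagen chains were higher than lower, and the proteoglycan VCAN fell. Of 35 collagen chains tested, 19 were higher and 3 lower, or 7 lower after the length and GC adjustment. COL5A1, a chain that controls fibril assembly, stood at 0.999 and 1.05 CPM with DMSO and at 211.8 and 205.2 CPM at 100 nM (7.67 ± 0.14, adjusted p = 8.6e-16). COL1A1, the main chain of fibrillar collagen, stood at 16.3 and 17.7 CPM with DMSO and at 861 and 829.9 CPM at 100 nM (5.64 ± 0.12). COL18A1, the basement membrane chain that holds endostatin, went from 735.5 and 684.3 CPM to 277.9 and 271.2 CPM (-1.37 ± 0.10). Both libraries of each group were close together in these chains.

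In the list of basement membrane genes and proteoglycans, 19 of 41 were higher and 13 lower. SRGN, serglycin of secretory granules, stood at 0.583 and 0.543 CPM with DMSO and at 93.4 and 89.6 CPM at 100 nM (7.34 ± 0.17, adjusted p = 8.2e-15). VCAN, the matrix proteoglycan versican, stood at 838.4 and 921.2 CPM with DMSO and at 133.5 and 159.6 CPM at 100 nM (-2.59 ± 0.11, adjusted p = 8.1e-12). The groups did not overlap in either gene, which was common among all tested genes. Among 25 integrins, 12 were higher and 6 lower, or 3 lower without 100 nM replicate 1. With no library left out the integrin shares were 48% and 24%, beside 28.3% and 23.4% of all protein-coding genes. The share of falls was thus near the background. ITGB4, the laminin receptor of hemidesmosomes, rose by a log2 fold change of 4.36 ± 0.18. ITGB8, which activates latent TGF-beta, changed by -2.35 ± 0.15. Keratins, which share similar sequences, numbered 21 higher and 2 lower of 29 tested of 55 listed, or 1, 1 and 0 lower without DMSO replicate 2, 100 nM replicate 1 and 100 nM replicate 2. KRT17 stood at 0.166 and 0.138 CPM with DMSO and 33.3 and 28.4 CPM at 100 nM (7.65 ± 0.23).

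Among guidance cues and their receptors, 19 of 49 were higher and 15 lower, or 8 lower without DMSO replicate 1. With no library left out the shares were 38.8% and 30.6%, beside 28.3% and 23.4% of all protein-coding genes. ROBO4, a receptor of endothelial cells, stood at 0.187 and 0.149 CPM with DMSO. It reached 19.8 and 20.8 CPM at 100 nM (6.90 ± 0.21, adjusted p = 1.1e-13). SEMA6A, a transmembrane semaphorin, stood at 94.6 and 94.5 CPM with DMSO and at 8.25 and 9.15 CPM at 100 nM (-3.44 ± 0.13, adjusted p = 1.0e-12). Gap junction genes numbered 6 higher and 0 lower of 13, or 1 lower after the length and GC adjustment, with GJB2, connexin 26, at 2.94 ± 0.19 on the log2 scale. Of 61 potassium channels, 26 were higher and 8 lower, or 5 lower without DMSO replicate 1. Serpins, mostly protease inhibitors, numbered 14 higher and 0 lower of 21, or 2 lower after the adjustment.

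Receptor tyrosine kinases and their ligands changed in both directions. Of 46 receptors, 17 (37%) were higher and 11 (23.9%) lower, beside 28.3% and 23.4% of all protein-coding genes. The share of falls was thus near the background. RET, the receptor of glial-derived factors in kidney development, had 0 and 2 reads with DMSO and 406 and 343 reads at 100 nM. The ratio was 373.7, with a nominal 95% counting interval of 103.1 to 3091 that treats reads as independent. ROS1 stood at 0.0208 and 0.0745 CPM with DMSO and at 7.07 and 8.1 CPM at 100 nM (7.28 ± 0.34), and PDGFRB, the platelet-derived growth factor receptor, at 1.15 and 1.1 CPM and at 27 and 28.1 CPM (4.61 ± 0.15). FGFR2, an epithelial receptor of fibroblast growth factors, went from 18.8 and 22.3 CPM to 4.16 and 4.39 CPM (-2.27 ± 0.16). The libraries of each group lay close together in PDGFRB and FGFR2. Of 35 growth factors for such receptors, 15 were higher and 4 lower, or 10 lower after the length and GC adjustment. The EGF receptor ligands AREG and HBEGF had log2 fold changes of 3.08 ± 0.16 and 2.16 ± 0.12, and KITLG, the ligand of KIT, fell by 1.62.

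Immediate early genes and feedback inhibitors of MAP kinase numbered 32 higher and 0 lower of 36, or 1 lower after the length and GC adjustment, with a median log2 fold change of 1.29. SPRY4, an inhibitor of receptor signalling, stood at 1.59 and 1.62 CPM with DMSO and at 24.3 and 26.9 CPM at 100 nM (3.99 ± 0.16, adjusted p = 1.8e-12). MAFF, a small bZIP factor, and IER3, an early response gene, had log2 fold changes of 3.29 ± 0.17 and 2.30 ± 0.12. In the TGF-beta and BMP list, 19 (39.6%) of 48 were higher and 9 (18.8%) lower, beside 28.3% and 23.4% of all protein-coding genes. GDF15, a circulating stress factor of that family, stood at 26 and 17.6 CPM with DMSO and at 272.5 and 431.8 CPM at 100 nM (4.01 ± 0.20), and ENG, a co-receptor, at 2.55 and 2.06 CPM and at 102 and 101.5 CPM (5.46 ± 0.14). The receptor BMPR1A fell by 0.98.

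WNT pathway genes numbered 11 (25%) higher and 17 (38.6%) lower of 44. The co-receptor LRP6 went from 60.6 and 70.2 CPM to 25.4 and 29.5 CPM (-1.25 ± 0.14), and the receptor FZD6 from 143.3 and 152.2 CPM to 58.6 and 67.7 CPM (-1.23 ± 0.13). APC, which limits beta-catenin, fell by 1.73. DKK1, the secreted antagonist that blocks LRP6, stood at 0.0416 and 0.149 CPM with DMSO and at 18 and 17.4 CPM at 100 nM (7.53 ± 0.25, adjusted p = 3.5e-13). The groups did not overlap in LRP6, FZD6 or DKK1, which was common among all tested genes. Notch and Hedgehog genes numbered 11 (32.4%) higher and 7 (20.6%) lower of 34, near the background of 28.3% and 23.4%. YAP and TEAD targets numbered 10 (38.5%) higher and 9 (34.6%) lower of 26. Of 37 p53 targets, 20 were higher and 0 lower, or 6 lower after the length and GC adjustment.

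**Figure D4:**
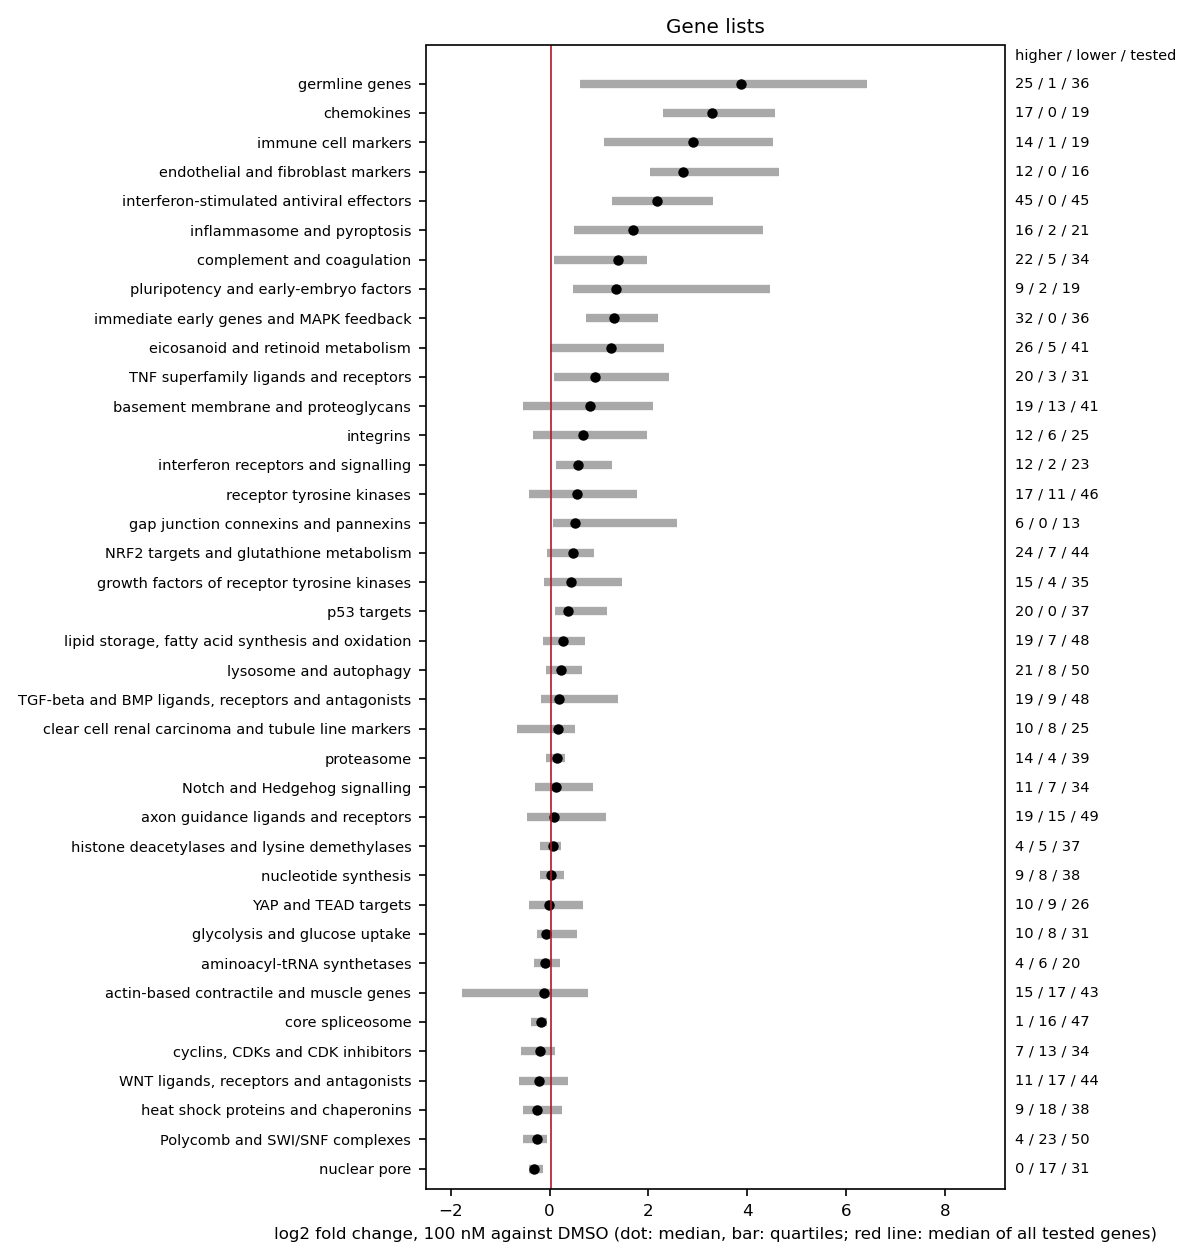
Log2 fold change of the tested members of each gene list, 100 nM against DMSO; dots are medians, bars span the quartiles and the red line is the median of all tested genes, 0.03. Numbers at the right are members called higher, members called lower and members tested; germline genes (25, 1 and 36) lie at the top and nuclear pore genes (0, 17 and 31) at the bottom.

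Enzymes of eicosanoid and retinoid metabolism numbered 26 higher and 5 lower of 41, or 8 lower after the length and GC adjustment. PTGES, which makes prostaglandin E, stood at 10.4 and 10.6 CPM with DMSO and at 95.9 and 103.7 CPM at 100 nM (3.25 ± 0.12), and PTGIS, which makes prostacyclin, at 0.333 and 0.308 CPM and at 16.4 and 13.9 CPM (5.55 ± 0.19). ALDH1A1, which makes retinoic acid, went from 121.7 and 128.5 CPM to 20.5 and 22.2 CPM (-2.55 ± 0.12, adjusted p = 1.5e-11). Targets of NRF2 and glutathione enzymes numbered 24 (54.5%) higher and 7 (15.9%) lower of 44, beside 28.3% and 23.4% of all protein-coding genes. FTL, a chain of the iron store ferritin, had the second largest gain per length, from 1614 and 1643 RPKM to 3187 and 2763 RPKM (0.87 ± 0.10), or 0.29 on the log2 scale after the length and GC adjustment. SLC7A11, the cystine importer of the same list, changed by -1.08 ± 0.18. Lower NRF2 targets numbered 12 after the length and GC adjustment, and 4, 3 and 4 without DMSO replicate 1, DMSO replicate 2 and 100 nM replicate 1.

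In lipid metabolism, 19 (39.6%) of 48 genes were higher and 7 (14.6%) lower, or 16 lower after the length and GC adjustment. Without DMSO replicate 2 and without 100 nM replicate 1 the lower lipid genes numbered 3 and 4. PLIN2, the coat protein of lipid droplets that clear cell tumours store, went from 191.9 and 168 CPM to 512.8 and 604 CPM (1.63 ± 0.11), and ACSL5, which activates fatty acids, from 3.06 and 2.83 CPM to 33.1 and 30.8 CPM (3.44 ± 0.14). Lysosome and autophagy genes numbered 21 higher and 8 lower of 50, or 15 lower after the adjustment and 5 lower without DMSO replicate 2. In the main fit the lysosome and autophagy shares were 42% and 16%. CTSS, a protease of antigen processing, went from 11.7 and 13.9 CPM to 79.3 and 101.4 CPM (2.82 ± 0.16). Of 31 genes of glycolysis and glucose uptake, 10 (32.3%) were higher and 8 (25.8%) lower, near the background of 28.3% and 23.4%, with 16 lower after the adjustment. Lower glycolysis genes numbered 4 or 5 with any 1 of the 4 libraries left out. SLC2A3, a glucose transporter, rose (1.57 ± 0.12) and PFKFB3, which drives glycolytic flux, fell (-1.08 ± 0.10). Of 38 genes of nucleotide synthesis, 9 (23.7%) were higher and 8 (21.1%) lower, shares slightly under that background, with 20 lower after the adjustment and 5 lower without DMSO replicate 2. CAD, which starts pyrimidine synthesis, fell by 0.89.

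Sarcomere and cardiac muscle genes were among the largest falls from at least 100 DMSO reads per library. MYH7, the slow myosin heavy chain, had 1760 and 1506 reads with DMSO and 2 and 0 reads at 100 nM. The ratio of DMSO to 100 nM was 1636, with a nominal 95% counting interval of 452.7 to 13519 that treats reads as independent. TNNT2, cardiac troponin T, had 124 and 136 reads with DMSO and 1 and 0 reads at 100 nM, a ratio of 260.6 with an interval of 46.4 to 10330. MYL2, a myosin light chain, had 526 and 394 reads with DMSO and 4 and 2 reads at 100 nM. These genes were low in the controls and close to absent after treatment. TTN, the giant sarcomere protein, stood at 58 and 55.8 CPM with DMSO and at 2.05 and 2.11 CPM at 100 nM (-4.77 ± 0.15, adjusted p = 1.3e-13). ACTA1, skeletal actin, differed between the controls, at 5.43 and 1.11 CPM, against 0.102 and 0.238 CPM at 100 nM. VAV3, a guanine nucleotide exchange factor outside this group, fell further than ACTA1, from 7.24 and 7.21 CPM to 0.143 and 0.541 CPM (-4.41 ± 0.35, against -4.27 for ACTA1). In the contractile list as a whole, 15 of 43 were higher and 17 lower, and TPM2, a tropomyosin, rose from 1.49 and 1.56 CPM to 35.1 and 30.2 CPM (4.42 ± 0.15).

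Of 25 markers of clear cell carcinoma and kidney tubule, 10 (40%) were higher and 8 (32%) lower, beside 28.3% and 23.4% of all protein-coding genes. CDH6, a cadherin of the proximal tubule, stood at 13.4 and 13.9 RPKM with DMSO and at 2.72 and 3.28 RPKM at 100 nM (log2 fold change -2.18, adjusted p = 1.8e-10). PAX8 and PAX2, transcription factors of the kidney lineage, fell by 0.69 and 0.65 on the log2 scale. CUBN, an endocytic receptor of the proximal tubule, rose from 0.614 and 1 CPM to 5.38 and 6.4 CPM (2.87 ± 0.22).

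Lists of nuclear and cell division machinery held more lower than higher members. Nuclear pore genes numbered 17 lower and 0 higher of 31, with a median log2 fold change of -0.31. TPR, the basket protein of the pore, went from 171.8 and 172.9 CPM to 49.7 and 69.1 CPM (-1.54 ± 0.13, adjusted p = 6.3e-08). Lower pore genes numbered 8 without DMSO replicate 1, 7 without DMSO replicate 2, 7 without 100 nM replicate 1 and 10 without 100 nM replicate 2. The pore list had 3 higher members after the length and GC adjustment. Spliceosome genes numbered 16 lower and 1 higher of 47, or 31 lower and 2 higher after the adjustment and 10 lower without DMSO replicate 2 or without 100 nM replicate 1. The single higher spliceosome call was lost without DMSO replicate 1, DMSO replicate 2 or 100 nM replicate 1. LUC7L3, a splicing factor, fell by 1.20 and PRPF38B, another, fell by 1.19. In the Polycomb and SWI/SNF list, 23 of 50 were lower and 4 higher, the latter 2 without DMSO replicate 2. SMARCA4, the BRG1 motor of the remodelling complex, went from 367 and 351.8 CPM to 186.6 and 179.7 CPM (-0.97 ± 0.10), and PBRM1, a subunit often mutated in clear cell carcinoma, from 52.8 and 55.3 CPM to 24 and 30.5 CPM (-0.99 ± 0.13).

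Cyclins, their kinases and inhibitors numbered 7 higher and 13 lower of 34, or 22 lower after the length and GC adjustment. CDK6, a kinase of entry into S phase, went from 156.3 and 168.1 CPM to 47.8 and 63.2 CPM (-1.55 ± 0.13). CENPF, a kinetochore protein of dividing cells, went from 426.2 and 444.2 CPM to 59.9 and 92.3 CPM (-2.52 ± 0.15, adjusted p = 5.7e-10). Of 21 centromere proteins, 10 were lower and 0 higher, or 16 lower after the adjustment, and of 37 kinesins, the motors of spindle and transport, 23 were lower and 8 higher. KIF14, a motor of cytokinesis, fell by 2.09. Zinc finger ZNF genes numbered 150 lower and 59 higher of 471, or 86 lower without 100 nM replicate 1. Heat shock proteins and chaperonins numbered 18 lower and 9 higher of 38, or 11 lower without DMSO replicate 2, and HSPD1, the mitochondrial chaperonin, went from 1106 and 1216 CPM to 624.6 and 663.5 CPM (-0.85 ± 0.10).

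Translation and respiration genes moved little, and their direction depended on the adjustment. Of 82 cytosolic ribosomal proteins, 12 were higher and 5 lower, against 9 higher and 46 lower after the length and GC adjustment. Higher ribosomal proteins numbered 6, 5 and 6 without DMSO replicate 1, DMSO replicate 2 and 100 nM replicate 1, and lower ones 2, 1, 2 and 2 with each of the 4 libraries left out. With a replicate block and with only the 4 libraries compared in the fit, 23 and 27 ribosomal proteins were higher, and 11 complex I subunits in both. These genes have many pseudogene copies that may share reads. Mitochondrial ribosomal proteins numbered 4 higher and 13 lower of 78, or 8 higher and 52 lower after the adjustment. With a library left out 6 to 8 were lower, and 1, 2 and 1 higher without DMSO replicate 1, DMSO replicate 2 and 100 nM replicate 1. Nuclear-encoded complex I subunits numbered 5 higher and 4 lower of 38, or 21 lower after the adjustment. Leaving out 1 library gave 1 or 2 higher for DMSO replicate 1, DMSO replicate 2 and 100 nM replicate 1, and 0 or 1 lower for DMSO replicate 1, DMSO replicate 2 and 100 nM replicate 2.

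Transcripts encoded in mitochondrial DNA held all 8 of the largest losses per length. Of 13 tested, 10 were lower and 0 higher, with a median log2 fold change of -0.42. MT-ND2, a complex I subunit, stood at 2763 and 2823 RPKM with DMSO and at 1423 and 1481 RPKM at 100 nM (-0.94 ± 0.10, adjusted p = 8.0e-07). MT-CO3, a subunit of cytochrome oxidase, stood at 4055 and 4288 RPKM with DMSO and at 2629 and 2619 RPKM at 100 nM (-0.67 ± 0.09, adjusted p = 1.2e-05). MT-CO1 and MT-ND4 changed least among these 8, by -0.31 ± 0.10 and -0.34 ± 0.10. The call of MT-CO1 was lost without DMSO replicate 1, DMSO replicate 2 or 100 nM replicate 1, and that of MT-ND4 without either of the last 2 of these.

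The methyltransferase genes themselves moved by different amounts. DNMT3B, a de novo methyltransferase, stood at 43 and 40.1 CPM with DMSO and at 82.3 and 89 CPM at 100 nM (1.04 ± 0.11, adjusted p = 7.7e-07). DNMT1, the maintenance enzyme that decitabine traps, stood at 405.2 and 410.1 CPM with DMSO and at 340.6 and 339.7 CPM at 100 nM (-0.26 ± 0.09, adjusted p = 0.029), a call lost with any 1 of the 4 libraries left out. DNMT3A stood at 12.8 and 12.6 CPM with DMSO and at 10.3 and 10 CPM at 100 nM (-0.33 ± 0.14, adjusted p = 0.061). It was not called in the main fit but was called lower under 7 of the 12 alternatives. Its log2 fold change ranged from -0.42 to -0.30 over them. SETD2 transcripts were present in every library despite the knockout label, at 77.9 and 81.2 CPM with DMSO and at 39.8 and 49.1 CPM at 100 nM (-0.84 ± 0.14, adjusted p = 1.0e-04). The position of the knockout lesion is not given in the sources used here, so whole-gene counts do not check it.

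Genes that rose at least 2-fold lay side by side in places. Among tested protein-coding genes in chromosomal order, 24 runs of 4, 8 of 5, 8 of 6, 2 of 7 and 1 of 9 neighbours were all higher at least 2-fold, against 2 runs of 4 that were all lower. Rises of at least 2-fold were also more frequent, 2667 against 867 falls among 15386 protein-coding genes. The number of runs that these shares would give without clustering was not tested. Genes of the runs are named for their position. The run of 9, at chr15:73925989-74433958, holds LOXL1, STOML1, PML, ISLR2, ISLR, STRA6, CCDC33, CYP11A1 and SEMA7A, genes of different function. CYP11A1, which starts steroid hormone synthesis, stood at 0.146 and 0.0851 CPM with DMSO and at 9.19 and 6.4 CPM at 100 nM (6.06 ± 0.30), and STRA6, the retinol transporter, at 1.43 and 1.51 CPM and at 29 and 25.9 CPM (4.22 ± 0.16). PML, the organiser of nuclear bodies, was already at 147.5 and 139.4 CPM with DMSO and reached 337.5 and 330.8 CPM. Silent and active genes of this stretch were thus higher together.

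Several runs of 6 held genes of 1 family and others did not. On chromosome 2 at chr2:112973203-113209396, genes of the interleukin-1 family rose with PSD4: IL36RN, an antagonist of the IL-36 receptor, stood at 0.0208 and 0.128 CPM with DMSO and at 13.1 and 16.1 CPM at 100 nM (7.60 ± 0.32). On chromosome 4 at chr4:73740506-74099293, CXCL8, CXCL6, CXCL1, CXCL5, CXCL3 and CXCL2 all rose, with log2 fold changes from 2.27 to 5.78. On chromosome 5 at chr5:150053291-150339307, PDGFRB lay between CSF1R, a receptor of macrophages, and CDX1, SLC6A7, CAMK2A and ARSI. Keratin runs lay on chromosomes 12 and 17, and on chromosome X there were runs of 7 SPANX and MAGEC genes, 7 MAGEA and CSAG genes and 6 that include SSX genes. Reads of the keratin, SPANX, MAGE and SSX genes may be split among near-identical copies. Overlap of neighbouring transcripts or reads that run on from one gene into the next could not be told apart from separate rises.

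**Figure D5:**
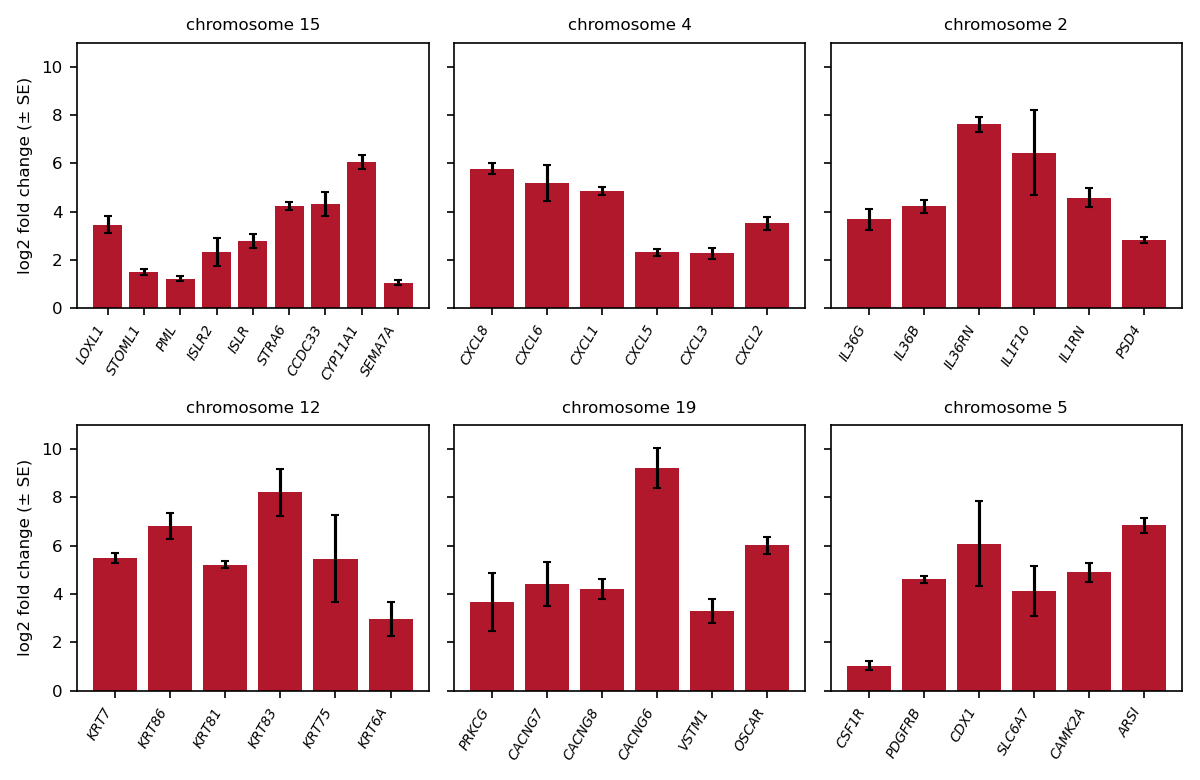
Log2 fold change at 100 nM against DMSO, with its standard error, of the neighbouring genes in 6 runs, in chromosomal order. All bars are above 1, from 1.04 for CSF1R to 9.21 for CACNG6; fitted values of genes without DMSO reads (KRT83, KRT75, CACNG6, IL1F10, CDX1) depend on the prior count and are not bounds.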

How the data were processed

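Poly-A enriched RNA from 2 DMSO, 2 100 nM and 2 300 nM libraries was analysed. The deposited counts are whole reads per gene, not normalised; per the file headers the authors used featureCounts 1.5.0-p3 with GENCODE 28 models, without paired-end or strand options, so each mate counts and strand is not resolved. The submitters' processing notes name STAR, SAMtools and DESeq2, with versions not given in the sources used here, and hg19 and GRCh37, but the 56933 gene identifiers shared with GENCODE v29 had the same GRCh38 coordinates in the files. Coordinates are GRCh38. The deposited log2 matrix, scaled by the authors in a way not given in the sources used here, served only as an alternative.

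Counts were scaled by TMM, filtered with filterByExpr and fitted over all 6 libraries by group with edgeR 4.0.16 (R 4.3.3; limma 3.58.1, DESeq2 1.42.0 for alternatives), using the two-sided quasi-likelihood test with Benjamini-Hochberg adjustment over 23160 genes at 0.05 and 3 residual degrees of freedom. The 2 libraries of a group differed by more than counting error (chi-square per gene 8.66 for DMSO and 23 at 100 nM). In simulated counts for 22317 genes, 200 genes outside the lowest levels were changed at 100 nM, up or down. Of 1.5-fold, 2-fold and 4-fold changes, 46.5%, 79.1% and 100% were recovered, and 3.27% of calls were false. The real comparison changed far more genes, with large changes mostly upward and many from near 0 reads. These rates may therefore not hold for it. Intervals are exact binomial intervals at a nominal 95% that treat reads as independent. Like the floor of 3 reads, they address counting error only. Reads are not independent molecules, since each mate counts. Of counts from 1 to 10, 70% to 72% were even in the 4 libraries compared, so the intervals are too narrow even for counting error.

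The comparison, the 38 gene lists, the 22 symbol families and the named genes' rule were chosen with earlier results of these data known. Named genes are called protein-coding genes: the 8 largest gains and losses in RPKM, the 8 largest rises and falls from 100 or more reads in both DMSO libraries, up to 3 members of each list in its main direction and 1 in the other by smallest adjusted p (mean of at least 1 CPM), the highest and lowest called member of each family, and SETD2, DNMT1, DNMT3A and DNMT3B. Promoters were looked up for genes outside chromosome 8 and the mitochondrial genome. The values of 2 named genes are not reported here. Genes of runs, list sums and identity markers are named besides. Alternatives were median-of-ratios size factors, no low-count filter, only the 4 libraries, a replicate block, each library left out, length and GC offsets (natural splines per library, also with the block), DESeq2, and limma on the deposited log2 matrix.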

Additional observations from a re-analysis of the deposited data

How the results depend on the processing

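Under 12 alternatives, 2470 of 2532 values of the 211 named genes kept their direction and their side of the threshold. Of the others, 49 lost the call, 7, all of DNMT3A, gained one and 6 changed sign. The sign changes arose when length and GC trends were removed, without and with the replicate block: SNRPD2 went from 0.28 to -0.30 in both, NDUFA5 from -0.61 to 0.06 in both, and S100A6 from 0.36 to -0.24 and -0.23. Without changing sign, the same removal brought the log2 fold changes of JAK2, CARD8, TFPI and BMPR1A to -0.32, -0.20, -0.71 and -0.54, those of LRP6, TEX15, SLC7A11 and LUC7L3 to -0.82, -0.50, -0.47 and -0.74, those of PBRM1, CDK6 and POU5F1 to -0.60, -1.03 and -0.93, those of PSMB8, PSME2 and DNMT3B to 0.72, 0.62 and 0.67, and those of DNMT1, MT-CO1 and MT-ND4 to -0.44, -0.65 and -0.57. Genes lower numbered 4331, but 7085 with the length and GC offsets and 7138 with the replicate block added. List members called lower, summed over lists, numbered 272, but 432 and 435 under the same settings. With each library left out, genes lower numbered 2883 to 3631, the lowest without 100 nM replicate 1, genes higher 4357 to 4903, genes higher at least 2-fold 3286 to 3432, and genes lower at least 2-fold 922 to 1477. The cause was not tested. The labels do not say whether replicate numbers pair the libraries. Correlations of same-numbered deviations were 0.085 between DMSO and 100 nM, 0.075 between DMSO and 300 nM and 0.193 between 100 nM and 300 nM. Such weak correlations over all genes cannot settle it. A replicate block gave 6179 genes higher and 5140 lower. Leaving out a library leaves its group with 1, which is assumed to vary like the others. The fit had 3 residual degrees of freedom, and 11479 genes had an unadjusted p under 0.05.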
